A study of Mus musculus with 16 samples.

Results

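Wounds of diabetic db/db mice treated with topical estrogen were compared with wounds of untreated db/db mice, on the arrays labelled day 7. The comparison took the 2 arrays whose titles name estrogen and day 7 and the 2 whose titles name db/db and day 7, which are 4 of the 16 arrays of the series. All 4 came from female diabetic mice of the strain C57BLKS/J Iar, homozygous for the db mutation of the leptin receptor gene Lepr (db/db), which were 10 weeks old. The db/db group carried full-thickness skin wounds of 4 mm in diameter on the back under a dressing, and received no agent. The db/db + estrogen group carried the same wounds, and sesame oil carrying estradiol benzoate (0.75 μg/g/day) was put on them daily. The untreated group therefore lacked the oil as well as the hormone, and the 2 arrays labelled day 7 of the db/db + vehicle group, which received sesame oil alone, are given beside many of the results. Where no vehicle value stands beside a gene, the text makes no statement on what oil alone did to it. The wound with its surrounding intact skin was cut into equal pieces, one for histology and the other for RNA from a whole homogenate, so that lower RNA per cell and fewer cells of a type cannot be told apart in any value below. Each mouse had 2 wounds, and nothing states whether the 2 arrays of a group came from separate mice. The p-values and standard errors rest on the spread between arrays within the 8 groups of the series, pooled over all 16 arrays. They are not the spread of the 4 arrays compared alone, and this spread may in part be technical.

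Days are written here as the labels give them. Of 18 genes that were tabulated by the study for day 14, 18 exceeded 2-fold in the tabulated direction on the arrays labelled day 7 and 9 on those labelled day 14. Of 19 genes tabulated for day 7, the counts were 7 on the arrays labelled day 7 and 19 on those labelled day 14. Fold changes matched in size too. Those that the study tabulated for day 14 equal, after rounding, the ones found here on the arrays labelled day 7. Examples are Ltf (453-fold lower), Mmp10 (157-fold lower) and Ngfr (36.8-fold higher). The values below are therefore those that the study presented as day 14. Whether the labels or the study's tables give the right day after wounding is not settled by the sources used here. On the 8 arrays labelled day 7, the 75th percentile of the processed signal ran from 1204 to 2318, between 73.5% and 77.8% of probes were well above background, and 0 spots were saturated. Replicate 1 of every group lay on slide 1 and replicate 2 on slide 2. A level below is the log2 of the processed signal minus the log2 75th percentile of its array, and a difference is db/db + estrogen minus db/db in log2 units with its standard error (n = 2 arrays in each group). "Rose" and "fell" are written of genes that passed 2-fold and an adjusted p of 0.05, and all adjusted p-values are from limma with Benjamini-Hochberg adjustment over all probes tested. The skin label held: the epidermal keratins Krt14 and Krt5 and the dermal collagens Col1a1 and Col3a1 were well above background on all 4 arrays, at levels between 5.72 and 7.72.

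Estrogen acts through the nuclear receptors Esr1 and Esr2, which bind DNA as dimers and switch on target genes such as the progesterone receptor gene Pgr. A skin wound passes through an early phase in which neutrophils and inflammatory macrophages enter, a phase in which keratinocytes at the edge change their keratins and crawl over the bed, and a later phase of remodelling in which hair follicles may regrow at the margin. In db/db wounds the early phase is known to be prolonged, and estrogen is known to dampen inflammation in skin wounds.

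Of 30190 probes tested, 1598 were called (5.29%), of which 745 were higher (2.47%) and 853 were lower (2.83%) in the db/db + estrogen group. All 1598 moved in the same direction on slide 1 and on slide 2. The calls rest on these same values, which makes such agreement nearly certain, so that it is no separate support. Counted once per named gene, 470 of 17110 genes rose (2.75%) and 577 fell (3.37%), and these shares are the background for the gene lists below. The members of all lists were chosen with earlier results of these data known. An excess of a list over the background may therefore be built in by that choice, and it is a description and not a test. At the unadjusted p of 0.05 used by the study, 3019 probes passed, of which 1587 were higher (5.26%) and 1432 lower (4.74%). The median difference over all probes tested was 0.04. Replicates of the db/db + estrogen group differed from each other by more than 2-fold at 2.604% of probes, against 10.407% for the db/db group and 8.148% for the db/db + vehicle group. Leaving out 1 array left between 562 and 1111 calls, with 562 without db/db + estrogen replicate 1 and 574 without replicate 2.

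Against the db/db + vehicle group 990 probes were called (3.28%), of which 507 were higher (1.68%) and 483 were lower (1.60%). Leaving out 1 array left 111 calls without db/db + estrogen replicate 1, 168 without its replicate 2, 202 without db/db + vehicle replicate 1 and 628 without its replicate 2. Between the db/db + vehicle and the db/db groups 69 probes were called (0.229%). Each of these comparisons shares 2 arrays with the one described, so that their values for a gene are not independent of each other.

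The estrogen response itself was measured on 30 receptors and target genes, of which 5 rose and 2 fell. The median difference of the list was −0.03. Pgr, which encodes the progesterone receptor, was at −1.40 and −1.09 on the db/db + estrogen arrays and at −9.51 and −9.22 on the db/db arrays, on which its spot was not well above background. It was at least 71.3-fold higher with estrogen (adjusted p = 1.41e-05). Such a bound sets the mean of the brighter group against, on each array of the dim group, the higher of the lowest signal well above background and the signal of the gene itself. Greb1, an estrogen-induced cofactor of the estrogen receptor, was at 2.77 and 2.90 with estrogen and at −5.19 and −3.57 in the db/db group, a difference of 7.22 ± 0.52 (adjusted p = 0.000276). Neither gene overlapped between the groups, and both were the genes of this list with the largest differences upward.

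The oil-treated wounds were not at the untreated level for these markers. Pgr stood at −3.76 and −4.11 and Greb1 at 0.45 and 0.27 on the db/db + vehicle arrays, between the other groups. The db/db + vehicle group was higher than db/db by 5.43 (adjusted p = 0.000727) for Pgr and by 4.74 (adjusted p = 0.0142) for Greb1. The db/db + estrogen group was in turn higher than db/db + vehicle by 2.69 (adjusted p = 0.00544) for Pgr and by 2.48 (adjusted p = 0.0333) for Greb1. Over the whole list, the median of vehicle minus db/db was 0.11. The palindrome GGTCA, any 3 bases, TGACC, which estrogen receptors bind, lay in 0 of 23 promoters of the list (from 250 bases before to 50 after the start) and in 20 of 27025 promoters in all (0.074%), a match of letters that says nothing of binding elsewhere.

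Among the receptors, Esr1 rose, from −3.53 and −3.22 in the db/db group to −2.10 and −1.85 with estrogen (1.40 ± 0.36, adjusted p = 0.0438), and the vehicle arrays lay at −3.31 and −3.41. Esr2 was at 0.99 and 1.79 without and 1.39 and 1.14 with estrogen, and its groups overlapped (−0.12 ± 0.41, adjusted p = 0.905). Prlr, the prolactin receptor gene, rose by 2.33 ± 0.45 (adjusted p = 0.0140). The fifth gene that rose was Igf1, a growth factor gene (difference 1.17 ± 0.23, adjusted p = 0.0155), named after its values were seen. Lower were Hsd17b1, which encodes an enzyme that converts estrone into estradiol (−1.42 ± 0.33, adjusted p = 0.0302), and Ltf, which is described with the neutrophil genes. Pgr and Greb1 kept their calls with any of the 4 arrays left out. Esr1 and Hsd17b1 lost theirs with each of the 4 left out in turn (adjusted p up to 0.219), and Prlr lost its call without either db/db + estrogen array or db/db replicate 1 (up to 0.0985), so that 2 genes of the list were called higher in those 3 settings.

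Genes outside the list also rose. Akr1c14, which encodes a steroid-metabolizing reductase, was at 2.06 and 2.41 with estrogen, −1.06 and −0.93 with vehicle and −3.54 and −3.77 in the db/db group, so that it rose by 5.89 ± 0.48 (adjusted p = 0.000378). Ptpn5, a tyrosine phosphatase gene, was at 0.13 and 0.17 with estrogen, −1.11 and −1.53 with vehicle and −4.14 and −4.87 without either (4.65 ± 0.35, adjusted p = 0.000276). In both genes the oil-treated arrays lay between the other groups with no overlap. Adamts19, a metalloproteinase gene, had 0 db/db arrays well above background and was at −2.98 and −2.30 with estrogen and −3.24 and −4.79 with vehicle, which made it at least 27.3-fold higher with estrogen (adjusted p = 0.00104). Nexmif, an X-linked gene of neurite extension, was at −3.38 and −2.94 with estrogen and at −5.89 and −5.82 with vehicle, and was at least 19.0-fold higher than in the db/db group (adjusted p = 0.000276). The vehicle minus db/db difference passed the threshold for Ptpn5 at 3.18 (adjusted p = 0.0142) and for Adamts19 at 5.20 (adjusted p = 0.0245). Ngfr, the low-affinity neurotrophin receptor gene, rose by 5.20 ± 0.77 (adjusted p = 0.00434) and was the only one of 14 neurotrophin and receptor genes to rise, while 1, Gdnf, fell with a call that was lost with each array left out. On the arrays labelled day 14, the estrogen difference was 8.43 for Pgr, 6.43 for Greb1, 5.21 for Ptpn5, 5.12 for Adamts19, 2.93 for Nexmif, 3.91 for Akr1c14 and 4.96 for Ngfr. The test of the difference between labelled days gave adjusted p-values from 0.210 for Nexmif to 0.962 for Ngfr among these 7 genes.

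**Figure D1:**
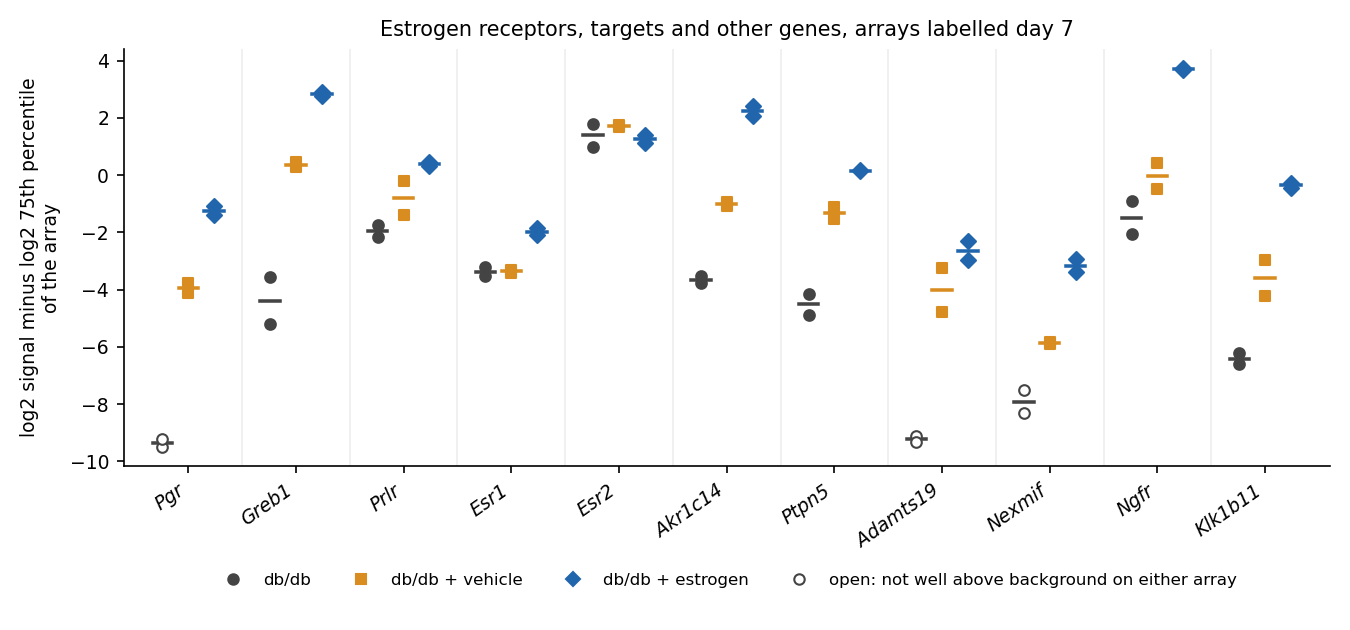
Levels of estrogen receptors, estrogen targets and other genes on the 6 db/db arrays labelled day 7. Each point is 1 array (y axis: log2 signal minus the log2 75th percentile of the array), each line is the mean of 2 arrays, and open points were not well above background on any array of the group. For Pgr, Greb1, Akr1c14 and Ptpn5 the vehicle points lie between the db/db and the db/db + estrogen points, and for Esr2 all groups lie between 0.99 and 1.79.

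Among the lists, the largest number of genes fell in that of neutrophils. Of 31 neutrophil granule and receptor genes tested, 26 fell and 0 rose, against 3.37% of all named genes that fell. The median difference of the list was −4.97. Its median level was 2.27 and 1.44 on the db/db arrays, −0.40 and −0.33 on the vehicle arrays and −3.40 and −2.76 on the db/db + estrogen arrays. Leaving out 1 array left between 20 and 25 genes of the list called lower.

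The granule proteins packed while neutrophils mature in the bone marrow included the largest falls. Ltf, which encodes lactoferrin, was at 3.25 and 1.76 on the db/db arrays and at −5.84 and −6.79 on the db/db + estrogen arrays, and was 453-fold lower with estrogen (−8.82 ± 0.74, adjusted p = 0.000378). Camp, which encodes the antimicrobial peptide cathelicidin, was at 4.11 and 2.66 without and −3.40 and −3.98 with estrogen (−7.08 ± 0.80, adjusted p = 0.00138). Both were also low on the oil-treated arrays, at −5.51 and −3.28 for Ltf and −4.02 and −1.37 for Camp, and their differences between estrogen and vehicle were −1.92 (adjusted p = 0.168) and −0.99 (adjusted p = 0.505). Mmp8, the neutrophil collagenase gene, fell (−6.25 ± 0.62, adjusted p = 0.000630) and had a difference from vehicle of −3.24 (adjusted p = 0.0229).

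Other genes of the list stayed high under oil. S100a8 and S100a9, which encode the subunits of calprotectin, were at 7.14 and 7.46 and at 7.60 and 7.91 on the db/db arrays. With vehicle they were at 7.61 and 7.31 and at 7.82 and 7.92, and with estrogen at 0.92 and 2.69 and at 2.02 and 4.19. S100a8 fell (−5.49 ± 0.45, adjusted p = 0.000378) and so did S100a9 (−4.65 ± 0.51, adjusted p = 0.00112), with differences from vehicle of −5.66 (adjusted p = 0.000934) and −4.76 (adjusted p = 0.00287). Keratinocytes of a wound edge also express both genes. Fpr1, a receptor gene for bacterial formyl peptides, was at 2.27 and 2.29 in the db/db group, 0.60 and −0.06 with vehicle and −4.82 and −3.71 with estrogen (−6.55 ± 0.83, adjusted p = 0.00231, and against vehicle −4.53, adjusted p = 0.0197). Slpi, a protease inhibitor gene, was at 5.65 and 6.07, then 5.86 and 4.89, then 1.35 and 0.58 in the same order (−4.89 ± 0.43, adjusted p = 0.000418, and against vehicle −4.40, adjusted p = 0.0020).

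Stefin A genes, which encode cysteine protease inhibitors that mouse neutrophils express strongly, fell in 5 of 7 cases, and the 5 calls were present with any 1 array left out. Stfa2l1 was at 4.16 and 4.18 in the db/db group, 3.19 and 2.17 with vehicle and −2.35 and −1.82 with estrogen (−6.26 ± 0.64, adjusted p = 0.000803). Csta3 fell (−5.37 ± 0.71, adjusted p = 0.00280) and differed from vehicle by −6.30 (adjusted p = 0.00356). The members are similar in sequence, and their probes may share targets. Outside these lists, falls of this size were seen for Gpr84, a fatty acid receptor gene of activated myeloid cells, at 1.76 and 1.14 without and −5.52 and −4.97 with estrogen (−6.70 ± 0.61, adjusted p = 0.000477), and Acod1, which encodes the enzyme that makes itaconate in activated macrophages, at 3.05 and 4.02 without and −5.42 and −1.42 with estrogen (−6.95 ± 1.1, adjusted p = 0.00570).

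The chemokines that draw neutrophils were also lower. Of 11 neutrophil-attracting chemokines and growth factors, 5 fell and 0 rose, and all 11 differences were below 0. Cxcl2 was at 0.55 and 1.01 on the db/db arrays, −0.90 and −2.12 with vehicle and −5.92 and −3.64 with estrogen (−5.56 ± 0.90, adjusted p = 0.00618). Cxcl5 was at 3.89 and 1.97, then 3.34 and 2.34, then −5.63 and −2.07 in that order (−6.78 ± 1.15, adjusted p = 0.00798, and against vehicle −6.69, adjusted p = 0.0151). Csf3, the granulocyte colony-stimulating factor gene, fell (−6.52 ± 1.1, adjusted p = 0.00782) and so did Cxcl1 (−3.07 ± 0.59, adjusted p = 0.0147). Of the db/db + estrogen arrays, 1 was well above background for Csf3. Against vehicle, Cxcl2 did not pass the test (−3.27, adjusted p = 0.0697). The differences from vehicle were −5.59 (adjusted p = 0.0256) for Csf3 and −3.79 (adjusted p = 0.0107) for Cxcl1. The fifth gene that fell was Cxcl3. The calls depended on the arrays used: 0 genes of the list were called without db/db + estrogen replicate 1 (adjusted p of 0.0542 for Cxcl5, 0.0552 for Cxcl2, 0.0673 for Csf3 and 0.126 for Cxcl1), 2 without db/db replicate 1, 3 without db/db replicate 2 and 5 without db/db + estrogen replicate 2.

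Of 17 CC chemokines, 3 fell and 0 rose, and the median was 0.14. Ccl3 and Ccl4, made by activated macrophages, were at 2.80 and 3.17 and at 2.67 and 3.58 in the db/db group and at −1.35 and −1.48 and at −1.11 and −1.55 with estrogen, and fell (−4.40 ± 0.48, adjusted p = 0.00107, and −4.45 ± 0.41, adjusted p = 0.000477). Both fell with vehicle as well, with vehicle minus db/db differences of −3.05 (adjusted p = 0.0414) and −3.51 (adjusted p = 0.0148). Ccl7, a monocyte attractant gene, fell (−1.44 ± 0.28, adjusted p = 0.0143), a call that was present only without db/db + estrogen replicate 2 when 1 array was left out. Ccl2, the main monocyte attractant gene, was at 3.40 and 3.58 without and 2.18 and 2.64 with estrogen, with no overlap, and did not pass the test (adjusted p = 0.123).

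Of 16 genes of the interleukin-1 family and its receptors, 5 fell and 0 rose. Il1b was at 3.46 and 3.95 in the db/db group, 2.05 and 1.86 with vehicle and −4.55 and −0.99 with estrogen. It fell (−6.48 ± 1.00, adjusted p = 0.00508) and had a difference from vehicle of −4.73 (adjusted p = 0.0330). Its 2 db/db + estrogen arrays lay far apart, and both were below the other arrays. Il18rap, a subunit gene of the interleukin-18 receptor, fell (−3.62 ± 0.44, adjusted p = 0.00190). Il1a, Il1rl1 and Il18r1 made up the count, and with 1 array left out the list held between 2 and 3 calls, always with Il1b and Il18rap.

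Of 16 wound cytokines, 6 fell and 0 rose. Tnf was at 0.07 and 0.34 in the db/db group, −1.67 and −2.14 with vehicle and −2.37 and −3.52 with estrogen (−3.15 ± 0.46, adjusted p = 0.00398). Tnfsf11, which encodes RANKL, was at 0.26 and −1.36, then −3.35 and −1.74, then −6.68 and −6.06 (−5.82 ± 0.82, adjusted p = 0.00347). Il10, an anti-inflammatory cytokine gene, fell too, from −2.96 and −2.83 to −4.20 and −4.05 (−1.24 ± 0.19, adjusted p = 0.00519), while the vehicle arrays were lower still at −5.0 and −4.57. Osm fell (−3.07 ± 0.47, adjusted p = 0.00486), and Il4 and Il19 made up the count. Il6 was at −0.14 and 0.48 without and −4.74 and −1.62 with estrogen and did not pass the test (adjusted p = 0.0613). Tnf and Tnfsf11 kept their calls with any array left out. Without db/db + estrogen replicate 1 only these 2 were called, Osm at 0.0507 and Il10 at 0.0525 being just past the threshold, and Il4 and Il19 lost their calls with each array left out.

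Serum amyloid A genes, which wounds express in the acute-phase response, led the 4 of 17 acute-phase genes that fell. Saa3 was at 7.81 and 8.26 on the db/db arrays, 6.82 and 7.25 with vehicle and 0.38 and 3.14 with estrogen (−6.28 ± 0.93, adjusted p = 0.00431, and against vehicle −5.28, adjusted p = 0.0169). Saa1 fell (−6.08 ± 0.83, adjusted p = 0.00320). Lcn2, which encodes an iron-withholding lipocalin, was at 5.78 and 5.63, then 4.36 and 4.18, then 1.5 and 2.63 in that order (−3.64 ± 0.44, adjusted p = 0.00188). Saa2 was the fourth. Hp, the haptoglobin gene, was at 7.39 and 7.34 without and 6.17 and 6.90 with estrogen (adjusted p = 0.269). Of 17 skin antimicrobial peptides, which share Camp, Slpi, Lcn2 and Pglyrp1 with the lists above, 7 fell and 1 rose. Defb3, a beta-defensin gene of keratinocytes, was at −3.04 and −2.96 in the db/db group and 1.31 and −1.18 with vehicle, and failed to stand well above background on both db/db + estrogen arrays, at least 19.0-fold lower than db/db (adjusted p = 0.00170). Reg3g, another antimicrobial gene, was at 3.46 and 4.99 without and −1.12 and 0.54 with estrogen and did not pass the test (adjusted p = 0.0787).

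Genes of lymphocytes and mast cells gave fewer calls. Of 20 T and NK cell genes 0 rose and 0 fell (median 0.11), and of 8 B cell genes 0 rose and 0 fell. At an unadjusted p below 0.05 with over 2-fold, 4 T and NK cell genes were higher and 0 lower, and 0 B cell genes were higher and 3 lower. Of 11 granzyme and perforin genes, 3 granzyme genes fell, each call present with any 1 array left out. Gzme, a cytotoxic protease gene, was at 1.1 and −0.51 in the db/db group, −2.09 and −1.83 with vehicle and −4.80 and −5.57 with estrogen (−5.48 ± 0.52, adjusted p = 0.000569). Gzmd was not well above background with estrogen and was at least 12.4-fold lower (adjusted p = 0.000607), and the third was Gzmn. Of 14 mast cell genes 3 fell and 0 rose. Mcpt8, a protease gene that marks basophils, was at −1.28 and −2.36 in the db/db group, −6.68 and −6.26 with vehicle and not well above background with estrogen, at least 42.9-fold lower (adjusted p = 0.00582). The tissue mast cell genes Cpa3 and Cma1 were at 1.67 and 1.75 and at 1.13 and 1.06 with estrogen and at 1.42 and 2.06 and at 0.73 and 1.45 without, with overlapping groups (adjusted p = 0.990 and 0.997).

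Red blood cell genes had lower levels on the estrogen and on the vehicle arrays than on the db/db arrays. All 7 of 7 tested had differences below 0 (median −2.88), 0 passed the adjusted threshold and 7 passed the unadjusted one, and their summed level, in units of the 75th percentile of the array, was 422 and 307 on the db/db arrays and 35.9 and 150 with estrogen. For vehicle minus db/db the median of these 7 genes was −2.60, and estrogen minus vehicle ran from −0.46 for Hba-a1 to 0.09 for Slc4a1. Alas2, the heme synthesis gene of red cell precursors, was at 0.89 and 0.03 in the db/db group, −1.52 and −2.78 with vehicle and −3.34 and −1.05 with estrogen. The part of blood content in the falls of neutrophil genes was not tested.

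**Figure D2:**
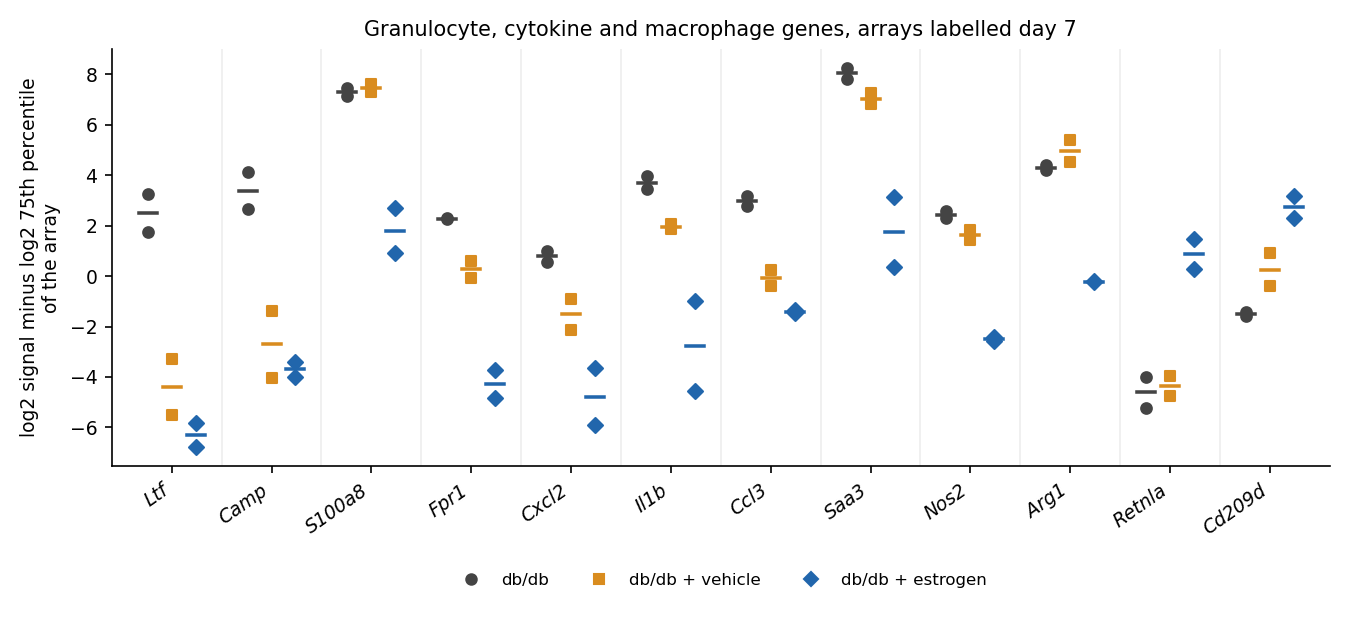
Levels of granulocyte, cytokine, acute-phase and macrophage genes on the 6 db/db arrays labelled day 7. Each point is 1 array (y axis: log2 signal minus the log2 75th percentile of the array) and each line is the mean of 2 arrays. Ltf and Camp are low with vehicle and with estrogen, S100a8, Saa3, Nos2 and Arg1 are low with estrogen and not with vehicle, and Retnla is high with estrogen, at 0.29 and 1.48.

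Macrophage genes moved in both directions. Macrophages of an early wound make nitric oxide and inflammatory cytokines, and those of a resolving wound carry lectins and scavenger receptors. Of 24 general macrophage and monocyte genes, 1 rose and 5 fell. The lineage markers Csf1r and Adgre1, which most macrophages carry, were at 5.56 and 5.65 and at 2.69 and 3.47 in the db/db group and at 5.89 and 6.11 and at 3.23 and 3.16 with estrogen, and did not pass the test (adjusted p = 0.392 and 0.863). Nos2, which encodes inducible nitric oxide synthase, was at 2.29 and 2.56 in the db/db group, 1.43 and 1.82 with vehicle and −2.59 and −2.42 with estrogen (−4.93 ± 0.77, adjusted p = 0.00533, and against vehicle −4.13, adjusted p = 0.0212). Cd14, the endotoxin co-receptor gene, fell (−2.91 ± 0.41, adjusted p = 0.00355) and so did Cd300lf, an inhibitory receptor gene of myeloid cells (−3.47 ± 0.51, adjusted p = 0.00434). These 3 calls were present with any 1 array left out. Marco and Msr1 also fell, with calls that were present only without db/db replicate 1. Siglec1, a lectin gene of resident macrophages that interferon induces, was the gene that rose (2.49 ± 0.49, adjusted p = 0.0154), and its call was present only without db/db replicate 2.

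Of 26 genes linked to alternative activation, the state that interleukin-4 induces, 11 rose and 4 fell. Retnla, which encodes the secreted protein Fizz1, was at −5.22 and −3.99 in the db/db group, −3.95 and −4.76 with vehicle and 0.29 and 1.48 with estrogen. It rose by 5.48 ± 0.63 (adjusted p = 0.00153) and was higher than vehicle by 5.24 (adjusted p = 0.00409). The Cd209 genes, mouse relatives of the lectin DC-SIGN, made up 7 of the 11 that rose. Cd209b, well above background on 1 of the 2 db/db arrays, was at −1.56 and −0.85 with estrogen against −6.58 and −9.50 (6.83 ± 1.01, adjusted p = 0.00431), Cd209d at 2.31 and 3.19 against −1.43 and −1.60 (4.26 ± 0.68, adjusted p = 0.00610) and Cd209a at −1.03 and −0.49 against −4.46 and −5.55 (4.24 ± 0.66, adjusted p = 0.00514). Against vehicle, Cd209a was higher by 2.87 (adjusted p = 0.0420). The differences of Cd209b (3.64, adjusted p = 0.0722) and Cd209d (2.49, adjusted p = 0.0700) from vehicle did not pass the test. Neither did those of Cd209c, Cd209e, Cd209f and Cd209g (adjusted p = 0.905, 0.207, 0.0918 and 0.105). The Cd209 genes are similar in sequence, and their probes may share targets.

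The marker genes of alternative activation most often used in wounds did not move together. Arg1, which encodes arginase, was at 4.39 and 4.21 in the db/db group, 5.39 and 4.52 with vehicle and −0.21 and −0.23 with estrogen, and fell (−4.52 ± 0.48, adjusted p = 0.000966, and against vehicle −5.17, adjusted p = 0.00151). Keratinocytes are also known to express Arg1. Chil3, which encodes Ym1, fell (−2.61 ± 0.62, adjusted p = 0.0349). Mrc1, the mannose receptor gene, was at 4.37 and 3.89 without and 3.89 and 4.37 with estrogen, with overlapping groups (adjusted p = 0.996). Retnla, Cd209b and Arg1 kept their calls with any array left out. Cd209a and Cd209d lost theirs without db/db + estrogen replicate 2 (adjusted p of 0.0503 and 0.0594), and Chil3 kept its call only without db/db replicate 2. The number of genes of the list that rose was 5 and 3 without the first and the second db/db + estrogen array, 7 without db/db replicate 1 and 6 without db/db replicate 2, and the number that fell was 1, 2, 2 and 4 in that order.

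Interferon-induced genes were higher with estrogen. Type I interferons act through the receptor Ifnar1 and its partner on STAT and IRF factors, which bind interferon-stimulated response elements in the promoters of antiviral genes. Promoters of 3 members that rose are printed here because they hold that element, as RefSeq gives them for build GRCm38.p6, each as the 160 bases before the start of the gene, 5′ to 3′ on the strand of the gene. Capitals mark matches to GAAA, any 2 bases, GAAA, or to the same read on the other strand (TTTC, any 2 bases, TTTC), and in Isg15 overlapping matches are joined.
Ifit1, chr19:34640729-34640888, plus strand: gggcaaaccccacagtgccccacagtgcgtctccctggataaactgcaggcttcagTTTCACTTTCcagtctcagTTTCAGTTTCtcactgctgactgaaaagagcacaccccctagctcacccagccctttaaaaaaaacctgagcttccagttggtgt
Ifit3, chr19:34583369-34583528, plus strand: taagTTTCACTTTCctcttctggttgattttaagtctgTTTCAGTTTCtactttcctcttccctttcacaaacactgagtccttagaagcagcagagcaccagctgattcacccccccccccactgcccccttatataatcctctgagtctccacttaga
Isg15, chr4:156200819-156200978, minus strand: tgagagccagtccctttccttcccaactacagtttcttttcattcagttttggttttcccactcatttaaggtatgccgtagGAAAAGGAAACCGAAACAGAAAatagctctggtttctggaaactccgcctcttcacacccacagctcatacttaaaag

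The matches began 104 and 85 bases before the start in Ifit1, 156 and 122 bases before it in Ifit3, and 78, 72 and 66 bases before it in Isg15. Within 250 bases before to 50 after the start, 1079 of 27025 genes with a promoter in the table held the motif (3.99%). Of the list's 58 genes tested, 45 had a promoter in the table and 21 held the motif (46.7%). It was present in 10 of 20 members that rose and in 11 of 25 that did not rise, which include 3 that fell and held it in 0 cases. A match of letters is a description of the window and does not show that a factor bound there.

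Of these 58 genes, 27 rose and 3 fell, against 2.75% and 3.37% of all named genes, and the median difference was 0.86. Ifit1, which encodes a protein that binds viral RNA, was at −5.23 and −5.72 in the db/db group, −3.33 and −3.77 with vehicle and −1.16 and −1.74 with estrogen (4.03 ± 0.49, adjusted p = 0.00188). Ifit3, which encodes its partner, was at −1.90 and −1.96, then −1.22 and −1.04, then 1.77 and 0.92 in that order (3.27 ± 0.49, adjusted p = 0.00436). Isg15, a ubiquitin-like modifier gene, was at 0.18 and 0.28, then 1.01 and 1.27, then 3.19 and 2.57 (2.65 ± 0.38, adjusted p = 0.00385). In these 3 genes the groups lay in the same order with no overlap. Irf7, the transcription factor gene that amplifies interferon production, rose by 3.02 ± 0.47 (adjusted p = 0.00510) and Ifi44 by 3.74 ± 0.44 (adjusted p = 0.00170). Against vehicle, the differences were 2.10 (adjusted p = 0.0429) for Ifit1, 2.48 (adjusted p = 0.0256) for Ifit3, 1.74 (adjusted p = 0.0371) for Isg15 and 1.38 (adjusted p = 0.121) for Irf7, and 10 of the 58 genes were called higher (background 1.68% of probes).

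The 3 genes of the list that fell were Ifitm6, Ifitm1 and Slfn4, the last named after its values were seen. Ifitm1 was at 4.01 and 3.55 in the db/db group and −0.98 and −0.01 with estrogen (−4.27 ± 0.60, adjusted p = 0.00347). Myeloid cells are known to express these genes. With 1 array left out, 1 gene of the list fell without either db/db + estrogen array or db/db replicate 1, and 2 fell without db/db replicate 2. Of 18 interferon-induced GTPases, 2 rose and all 18 differences were above 0 (median 1.06), with Gvin1 at −0.63 and −0.53 without and 1.43 and 1.32 with estrogen (1.95 ± 0.30, adjusted p = 0.00482). Gbp2b was the other, and its call was lost with each array left out. Of 19 receptors and upstream sensors, 0 rose and 2 fell. Socs3, a feedback inhibitor gene of cytokine signalling, was at 5.11 and 4.75 in the db/db group, 4.49 and 4.22 with vehicle and 2.01 and 2.64 with estrogen (−2.61 ± 0.24, adjusted p = 0.000533, and against vehicle −2.03, adjusted p = 0.00400). Jak2 fell (−1.03 ± 0.22, adjusted p = 0.0234), a call that was present only without db/db replicate 2. Ifnar1 was at 1.61 and 1.34 without and 0.82 and 1.01 with estrogen, under 2-fold apart (−0.56 ± 0.15).

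Ifit1, Ifit3, Isg15, Irf7, Ifi44, Ifitm1, Gvin1 and Socs3 kept their calls with any array left out. The number of type I interferon-induced genes that rose was 11 without db/db + estrogen replicate 1, 16 without replicate 2, 17 without db/db replicate 1 and 20 without db/db replicate 2. On the arrays labelled day 14 the list had a median estrogen difference of 1.1, and 0 of its 58 genes differed between the labelled days at an adjusted p of 0.05. Of all probes, 0.146% passed that test with over 2-fold, so that a count of 0 does not show that the days were alike.

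Among keratinocyte genes, most of the wound cornified envelope genes fell and those of resting epidermis gave few calls. Wounding switches keratinocytes to the keratins Krt6, Krt16 and Krt17 and to small proline-rich and Lce3 proteins, which reinforce the cornified envelope. Of 18 wound cornified envelope genes, 15 fell and 0 rose, with a median of −5.15. Sprr2e was at 2.42 and 3.53 in the db/db group, 5.73 and 4.41 with vehicle and −3.74 and −4.04 with estrogen, and fell (−6.86 ± 0.67, adjusted p = 0.000605). Sprr2g was at 1.51 and 3.16, then 4.89 and 3.65, then −5.28 and −5.58 in that order (−7.76 ± 0.84, adjusted p = 0.00104). Lce3a was at 0.19 and 3.05 in the db/db group and 4.52 and 3.20 with vehicle, and failed to stand well above background on both db/db + estrogen arrays, at least 468-fold lower than db/db (adjusted p = 0.000803). The corresponding bound for Sprr2i was 686-fold (adjusted p = 0.000418).

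In the oil-treated wounds the means of the named genes lay above those of the untreated ones, but these differences did not pass the test. Vehicle minus db/db was 2.10 (adjusted p = 0.198) for Sprr2e and 1.94 (adjusted p = 0.324) for Sprr2g. It was 2.06 (adjusted p = 0.298) for Sprr2i and 2.24 (adjusted p = 0.322) for Lce3a. The median of vehicle minus db/db over the 18 genes was 1.75, and that of estrogen minus vehicle was −6.62. Against vehicle 15 of the 18 were called lower (background 1.60% of probes), with differences of −8.95 (adjusted p = 0.000934) for Sprr2e, −9.70 (adjusted p = 0.00129) for Sprr2g and −11.64 (adjusted p = 0.00111) for Lce3a. The Sprr2 genes are near-identical in sequence and lie in a cluster, so their probes may share targets and the members do not count as separate observations. Sprr2e, Sprr2g, Sprr2i and Lce3a kept their calls with any array left out, and the number of genes that fell was 11 without db/db + estrogen replicate 1, 8 without replicate 2, 15 without db/db replicate 1 and 10 without db/db replicate 2.

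Of 8 genes in the list of wound-activated keratins, which also holds Krt8, Krt18, Krt19 and Krt75, 3 fell and 1 rose. Krt6b was at 6.36 and 6.21 in the db/db group, 7.78 and 6.51 with vehicle and 0.49 and 2.00 with estrogen (−5.04 ± 0.53, adjusted p = 0.000942, and against vehicle −5.90, adjusted p = 0.00134). Krt16 was at 6.72 and 6.63, then 7.92 and 7.19, then 3.70 and 4.0 in that order (−2.82 ± 0.37, adjusted p = 0.00280, and against vehicle −3.70, adjusted p = 0.00216). Krt6a fell (−3.09 ± 0.80, adjusted p = 0.0472), and its call was lost with each of the 4 arrays left out (up to 0.203). Krt17, which hair follicles also express, was at 5.02 and 5.26 without and 4.74 and 3.83 with estrogen (adjusted p = 0.317). The gene that rose was Krt75, a keratin of the companion layer of the hair follicle, whose call was also lost with each array left out.

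Epidermal kallikreins (Klk4 to Klk14), some of which cut corneodesmosomes at the skin surface, fell in 4 of 11 cases. Klk13 was at 1.34 and 2.82 in the db/db group, 3.95 and 3.05 with vehicle and −1.92 and −1.30 with estrogen (−3.69 ± 0.53, adjusted p = 0.00379, and against vehicle −5.11, adjusted p = 0.00242). Klk6 fell (−4.0 ± 0.70, adjusted p = 0.00905), and its adjusted p was 0.0751 without db/db + estrogen replicate 2 and 0.0571 without db/db replicate 2. Klk12 and Klk14 made up the count, and it was 2, 1, 3 and 1 without the first and second db/db + estrogen array and the first and second db/db array. Klk5 and Klk7, the main desquamation proteases, were at 3.41 and 2.62 and at 1.22 and 0.50 with estrogen and at 1.90 and 3.07 and at 0.65 and 2.08 without (adjusted p = 0.738 and 0.719).

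Genes of the intact epidermis gave few calls. Of 40 granular layer and barrier genes, 0 rose and 0 fell by limma at the adjusted threshold, 2 were higher and 2 lower at the unadjusted one, and the median was 0.65. Lor, which encodes loricrin, was at 6.08 and 7.19 in the db/db group and 7.63 and 7.17 with estrogen. Of 12 basal and suprabasal keratins, 1 rose, and all 12 differences were above 0 (median 0.81). Krt14 of the basal layer was at 5.72 and 6.08 without and 6.07 and 5.88 with estrogen, and Krt10 of the suprabasal layer at 5.10 and 6.29 without and 6.83 and 5.95 with estrogen, with overlapping groups for both (adjusted p = 0.942 and 0.780). The one that rose was Krt24, at −5.19 and −5.33 without and −3.17 and −2.87 with estrogen (2.24 ± 0.31, adjusted p = 0.00347).

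The hair follicle list moved upward. Of 19 hair follicle keratins, a list that counts the trichohyalin gene Tchh, 13 rose and 0 fell. All 19 differences were above 0, and the median was 2.83. Krt25, a keratin of the inner root sheath, was at 0.99 and 1.40 with estrogen and had 0 db/db arrays well above background, at least 388-fold higher (adjusted p = 0.00319). Krt71, of the same sheath, was at 2.34 and 2.84 with estrogen and −6.04 and −7.21 in the db/db group, where 1 of 2 arrays was well above background (9.21 ± 1.6, adjusted p = 0.00882). Krt35, of the hair cortex and cuticle, was at 0.18 and 0.54 with estrogen and −6.80 and −6.02 without (6.77 ± 1.12, adjusted p = 0.00715).

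The vehicle arrays were spread widely for these genes. Krt25 was at −5.23 and −1.52, Krt71 at −4.08 and 0.46 and Krt35 at −4.74 and −1.78, with replicate 2 higher than replicate 1 in each. Against vehicle the differences were 4.57 (adjusted p = 0.0943) for Krt25, 4.40 (adjusted p = 0.144) for Krt71 and 3.62 (adjusted p = 0.0979) for Krt35. Of 19 genes, 2 were called higher against vehicle (background 1.68% of probes). Of the genes named here Krt25 kept its call with any array left out, Krt35 lost it without db/db + estrogen replicate 2 (0.0575), and Krt71 kept it only without db/db replicate 1. The number of hair keratins that rose was 2 without db/db + estrogen replicate 1, 1 without replicate 2, 4 without db/db replicate 1 and 3 without db/db replicate 2.

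Of 34 keratin-associated proteins, which cross-link hair keratins, 10 rose and 0 fell, with a median of 0.82. Krtap9-3 had 0 db/db arrays well above background and was at −6.49 and −4.90 with estrogen, at least 3.28-fold higher (adjusted p = 0.00428). These genes are similar in sequence as well, and the count was 6, 1, 4 and 7 with the arrays left out in the order above. Of 22 regulators of follicle growth, 5 rose and 0 fell. Lhx2, a transcription factor gene of follicle stem cells, was at −2.53 and −3.20 in the db/db group, −3.18 and −1.53 with vehicle and 0.37 and 0.58 with estrogen (3.33 ± 0.46, adjusted p = 0.00337, and against vehicle 2.83, adjusted p = 0.0125). Hoxc13, a factor gene that drives hair keratin genes, was at −5.41 and −4.84, then −4.47 and −3.62, then −2.83 and −2.35 in that order (2.54 ± 0.36, adjusted p = 0.00355, and against vehicle 1.46, adjusted p = 0.0506). Both kept their calls with any array left out. Gli1 and Ptch1, targets of hedgehog signalling, rose by 1.92 ± 0.41 and 1.28 ± 0.27 (adjusted p = 0.0225 and 0.0226), and their ligand gene Shh was at −6.84 and −6.20 with estrogen and −6.74 and −9.24 without (adjusted p = 0.330). Bmp2 was the fifth. The calls of Gli1, Ptch1 and Bmp2 were lost with 3 or 4 of the arrays left out. Of 15 melanocyte pigment genes 1 rose, Oca2, and 0 were called with any array left out.

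On the arrays labelled day 14, the median estrogen difference of the hair keratins was 0.32. In the test between labelled days 0 of the 19 genes passed an adjusted p of 0.05. Only 0.146% of all probes passed it with over 2-fold, so that this count does not show that the days were alike. The estrogen difference on labelled day 7 exceeded that on labelled day 14 by 7.89 for Krt25 (adjusted p = 0.179), 8.11 for Krt71 (adjusted p = 0.208) and 6.45 for Krt35 (adjusted p = 0.176). The share of follicles in the tissue taken was not measured, and its part in these differences was not tested.

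**Figure D3:**
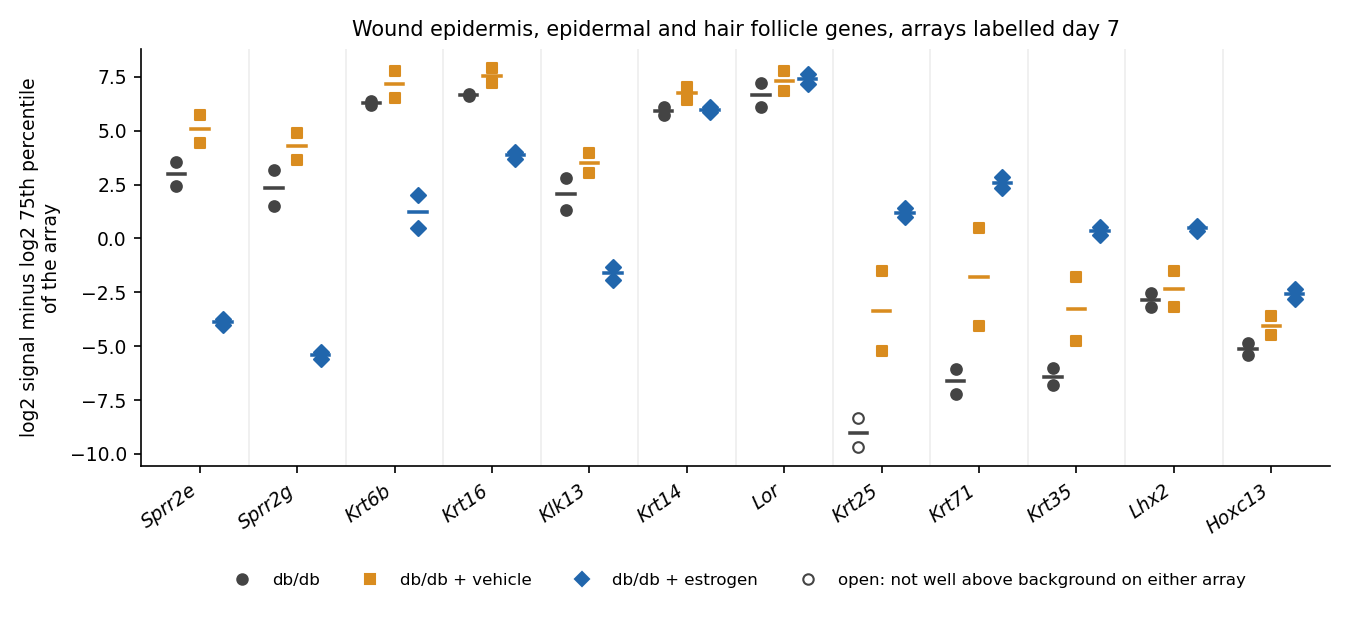
Levels of wound epidermis, resting epidermis and hair follicle genes on the 6 db/db arrays labelled day 7. Each point is 1 array (y axis: log2 signal minus the log2 75th percentile of the array), each line is the mean of 2 arrays, and open points were not well above background on any array of the group. Sprr2e to Klk13 have their lowest mean with estrogen and their highest with vehicle, Krt14 and Lor overlap between db/db and db/db + estrogen, and Krt25 to Hoxc13 are highest with estrogen.

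Some families of secreted proteins rose. Glandular kallikreins, serine proteases of salivary and other glands that include growth factor processing enzymes, rose in 10 of 13 cases with 0 falling, and all 13 differences were above 0. Klk1b11 was at −6.22 and −6.60 in the db/db group, −2.96 and −4.21 with vehicle and −0.45 and −0.26 with estrogen (6.06 ± 0.78, adjusted p = 0.00241, and against vehicle 3.23, adjusted p = 0.0478). Klk1, the tissue kallikrein gene, was at −7.22 and −6.67, then −6.24 and −5.66, then −3.89 and −3.79 in that order (3.10 ± 0.31, adjusted p = 0.000630, and against vehicle 2.11, adjusted p = 0.00831). Klk1b8 rose by 2.88 ± 0.24 (adjusted p = 0.000378) and Klk1b24 by 2.72 ± 0.23 (adjusted p = 0.000400). All 4 kept their calls with any array left out, between 8 and 9 members of the family rose in each of those settings, and 7 were called higher against vehicle. The Klk1 group is one of recent duplicates, and its probes may share targets.

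Major urinary protein genes, which encode pheromone carriers of the lipocalin fold, rose in 8 of 9 cases. Mup20 was at −1.05 and −0.17 with estrogen, −4.85 and −4.47 with vehicle and −3.99 and −5.67 in the db/db group (4.22 ± 0.72, adjusted p = 0.00834, and against vehicle 4.05, adjusted p = 0.0177). The 8 were each called higher against vehicle too, and the median of vehicle minus db/db was −0.03. Of the 8, 0 were called without db/db + estrogen replicate 2 and 1 without db/db replicate 2, against 6 and 8 without the other arrays. These genes are near-identical in sequence and their probes may read the same transcripts.

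Tissue that surrounds a wound differs in fat and muscle, and the lists for both are given as a check. Of 23 adipocyte genes, 3 rose and 0 fell (median 0.82), and their summed level was 184 and 299 on the db/db arrays and 349 and 491 with estrogen. Adipoq, which encodes adiponectin, was at 1.39 and 2.35 without and 2.21 and 3.57 with estrogen (adjusted p = 0.538), and Lpl, the lipoprotein lipase gene, rose by 1.84 ± 0.32 (adjusted p = 0.00846) with a call lost without db/db + estrogen replicate 2 or db/db replicate 1 (0.0709 and 0.0509). Of 28 sebaceous and fatty acid enzymes, 3 rose and 1 fell. Fabp5, a fatty acid carrier gene of keratinocytes, fell from 7.56 and 7.96 to 6.50 and 6.48 (−1.27 ± 0.17, adjusted p = 0.00264), and Scd3, an enzyme gene of sebocytes, rose by 1.92 ± 0.37 (adjusted p = 0.0151) with a call that was present only without db/db replicate 2. The number of adipocyte genes that rose was 1 and 0 without the first and second db/db + estrogen array and 0 and 2 without the first and second db/db array, and that of the sebaceous list was 1, 0, 1 and 4 in the same order. Of 21 fast muscle genes and 13 slow muscle genes, 0 rose and 0 fell by limma at the adjusted threshold. At the unadjusted one, 0 fast muscle genes were higher and 0 lower, and 0 slow muscle genes were higher and 1 lower. The summed level of the fast muscle genes was 1028 and 536 on the db/db arrays and 1313 and 1294 with estrogen (median difference 0.93), and that of the slow muscle genes was 162 and 90.2 and 79.4 and 80.0 (median −0.84). The part of tissue composition in the results above was not tested.

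Of 21 matrix metalloproteinases, which degrade matrix proteins, and their inhibitors, 7 fell and 1 rose. Besides Mmp8, Mmp25, a membrane-bound enzyme gene of neutrophils, fell from −3.03 and −3.75 to −8.38 and −6.76 (−4.18 ± 0.50, adjusted p = 0.00176), and so did Mmp7 (−2.87 ± 0.41, adjusted p = 0.00388), each with 1 of the 2 db/db + estrogen arrays well above background. Mmp25 was at −6.78 and −6.29 on the vehicle arrays, where it fell as well (vehicle minus db/db −3.14 (adjusted p = 0.0426)), and its difference between estrogen and vehicle was −1.04 (adjusted p = 0.256). For Mmp7 the difference from vehicle was −1.58 (adjusted p = 0.0613). Mmp9, the gelatinase gene, was at 1.88 and 0.45 in the db/db group, 1.19 and −0.33 with vehicle and −4.06 and −4.09 with estrogen (−5.24 ± 1.03, adjusted p = 0.0157). Mmp3 was at 6.26 and 5.64 without and 3.49 and 3.52 with estrogen and did not pass the test (adjusted p = 0.0993), and Mmp13 was at 4.10 and 1.47 without and 2.51 and 0.02 with estrogen with overlapping groups. Of the inhibitor genes, Timp1 fell (−1.59 ± 0.35, adjusted p = 0.0244) and Timp3, named after its values were seen, rose from 2.64 and 2.02 in the db/db group to 4.22 and 4.22 with estrogen (1.89 ± 0.34, adjusted p = 0.0107, and against vehicle 2.48, adjusted p = 0.00687). Mmp7, Mmp8 and Mmp25 kept their calls with any array left out, Mmp9 and Mmp10 kept theirs only without db/db replicate 2, and Timp1 lost its call with each array left out. The number that fell was 4 and 3 without the first and second db/db + estrogen array and 4 and 6 without the first and second db/db array.

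Of 29 collagen and matrix genes, 3 rose and 1 fell, with a median of 0.15. Col1a1 was at 6.14 and 6.51 without and 6.64 and 6.38 with estrogen, and Col3a1 at 7.00 and 7.22 without and 7.44 and 7.15 with estrogen (adjusted p = 0.777 and 0.728). Plod2, which encodes a collagen cross-linking lysyl hydroxylase, rose from −1.32 and −2.46 to 0.95 and 1.06 (2.89 ± 0.34, adjusted p = 0.00164), and Col17a1, a hemidesmosomal collagen gene of basal keratinocytes, rose by 2.07 ± 0.31 (adjusted p = 0.00471). Both calls were present with any array left out. Tnc, which encodes the provisional matrix protein tenascin C, fell (−2.69 ± 0.43, adjusted p = 0.00618), and without db/db + estrogen replicate 2 its adjusted p was 0.0532.

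Of 25 TGF-beta and myofibroblast genes, 3 fell and 0 rose, and of 31 blood and lymph vessel genes, 3 fell and 0 rose. Acta2, which encodes smooth muscle actin, was at 3.84 and 3.20 in the db/db group and 2.81 and 3.0 with estrogen, and Tgfb1 at 0.94 and 1.05 without and 0.35 and 0.31 with estrogen (adjusted p = 0.423 and 0.0676). Pecam1, which encodes the endothelial marker CD31, was at −0.95 and −1.64 without and −1.54 and −1.50 with estrogen with overlapping groups (adjusted p = 0.653). Vegfa was at 0.94 and 1.17 in the db/db group, 2.83 and 2.11 with vehicle and −0.25 and 0.10 with estrogen. It did not pass the test against db/db (adjusted p = 0.0769) and had a difference from vehicle of −2.55 (adjusted p = 0.00591). Vcam1, an adhesion gene of activated endothelium, fell (−2.19 ± 0.42, adjusted p = 0.0143) and so did Inhba, an activin subunit gene (−3.57 ± 0.72, adjusted p = 0.0180). Each was called with only 1 of the 4 arrays left out, which was db/db + estrogen replicate 2 for Vcam1 and db/db replicate 2 for Inhba. Without db/db + estrogen replicate 1 or db/db replicate 1, 0 genes of either list were called, and without db/db replicate 2 the counts were 6 and 5.

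Of 33 respiratory chain subunits, 30 cell cycle genes and 19 cholesterol synthesis genes, 0 rose and 0 fell by limma at the adjusted threshold, with medians of 0.13, 0.10 and 0.24. At the unadjusted threshold, 0, 0 and 1 genes of these lists were higher and 0, 0 and 1 lower. Of 27 glycolysis and hypoxia genes 3 fell, among them Slc16a3, a lactate exporter gene, from 3.86 and 3.76 to 2.16 and 2.05 (−1.70 ± 0.27, adjusted p = 0.00533). Of 18 circadian clock genes 2 rose and 3 fell. Cry1 fell from −4.41 and −4.46 to −5.78 and −6.04 (−1.47 ± 0.18, adjusted p = 0.00226) and so did Nfil3 (−1.40 ± 0.21, adjusted p = 0.00482), and the central activator gene Arntl was at −0.59 and −0.72 without and −0.68 and −0.70 with estrogen. Slc16a3, Cry1 and Nfil3 kept their calls with any array left out, and the other calls of these lists were each lost with at least 1 array left out. Of 24 keratinocyte migration and protease genes 2 rose and 6 fell, and the counts were 0 and 3, 1 and 1, 0 and 3, and 2 and 6 without the first and second db/db + estrogen array and the first and second db/db array. Among them Plau, the urokinase gene, was at −1.46 and −1.55 without and 0.11 and −0.46 with estrogen, and Plaur, its receptor gene, at 2.91 and 2.59 without and 0.93 and 0.98 with estrogen. Of 19 prostaglandin and leukotriene enzymes 2 fell, and 0 with any array left out. Of 19 MHC class II and Langerhans cell genes 1 rose, of 14 S100 genes 1 rose and 3 fell, of 8 Skint genes 1 rose and 1 fell, and of 21 EGF, FGF and HGF family ligands and receptors 1 fell. Of the calls in these last 4 lists, those of S100a8 and S100a9 alone were present with any 1 array left out.

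**Figure D4:**
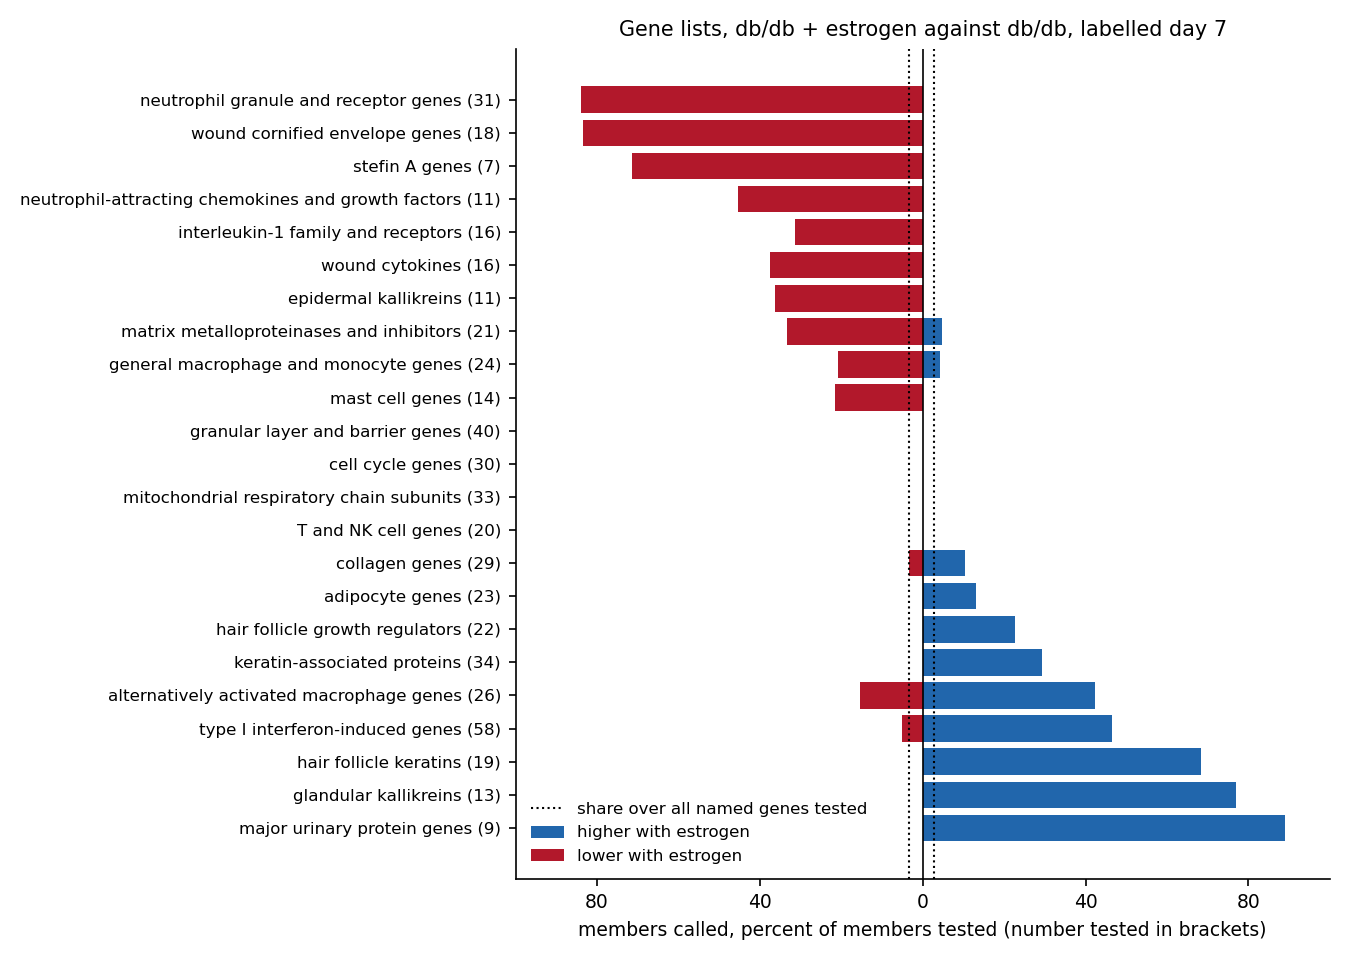
Share of the tested members of 23 gene lists that were called in db/db + estrogen against db/db on the arrays labelled day 7 (x axis: percent of members tested, higher to the right and lower to the left, with the number tested in brackets). Dotted lines mark the shares over all named genes, 2.75% higher and 3.37% lower. Neutrophil, wound cornified and stefin A genes extend furthest to the left and major urinary protein, glandular kallikrein and hair keratin genes furthest to the right.

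The estrogen difference was compared between the labelled days with an interaction term. Of 30190 probes, 44 differed at an adjusted p of 0.05 by over 2-fold (0.146%), of which 9 were higher and 35 lower on labelled day 7 than on labelled day 14. Sprr2e had an estrogen difference of −6.86 on labelled day 7 and 1.11 on labelled day 14 (adjusted p of the difference 0.0292), S100a8 of −5.49 and 0.33 (adjusted p = 0.0234), and Krt6b of −5.04 and 0.73 (adjusted p = 0.0315). For Ltf the differences were −8.82 and −2.28, and the test did not pass (adjusted p = 0.0619). Medians of the gene lists on labelled day 14 were −1.03 for neutrophil genes, 0.66 for wound cornified genes and 1.17 for glandular kallikreins. The count of 44 was 3 without db/db + estrogen replicate 1, 4 without replicate 2, 62 without db/db replicate 1 and 6 without db/db replicate 2. With slide as a fixed block limma called 0 probes (2461 at the unadjusted threshold). The arrays of the labelled days lay on separate slides, so that slide and labelled day cannot be told apart. On labelled day 14 both db/db arrays lay on slide 3, and the db/db + estrogen arrays lay on slides 3 and 4. Slide and treatment are therefore partly mixed in the estrogen difference of labelled day 14.

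**Figure D5:**
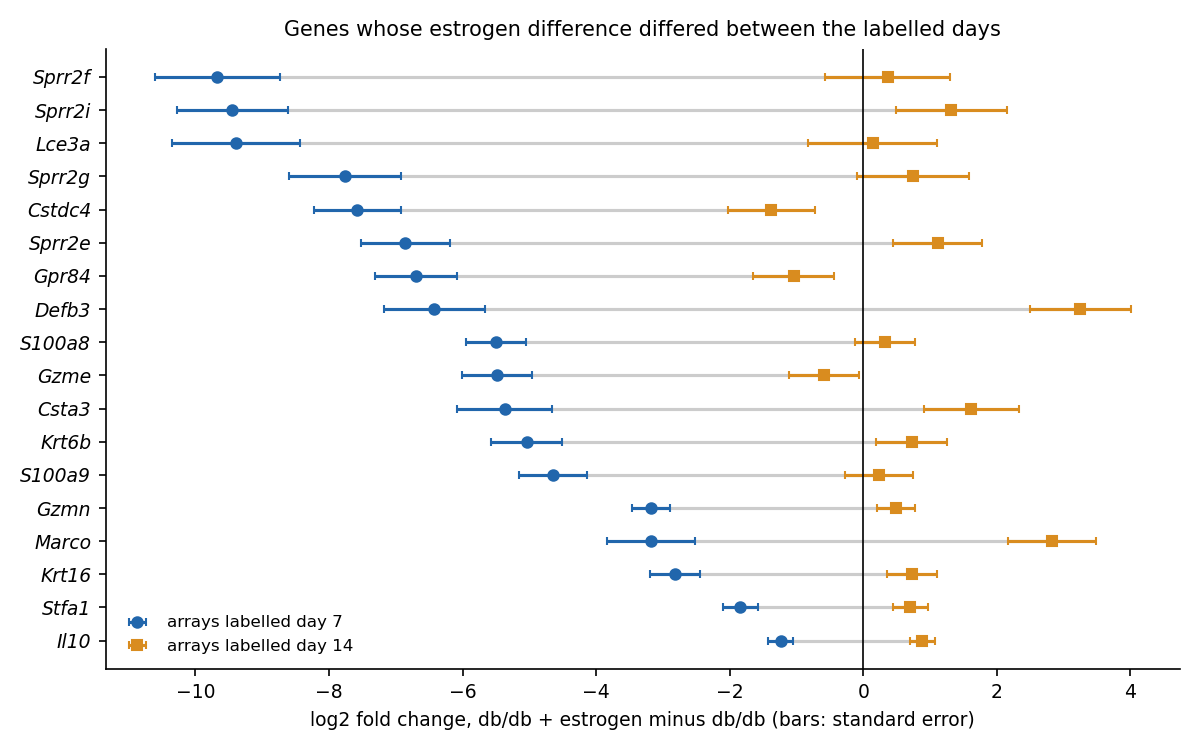
Estrogen difference on the arrays of each labelled day for 18 named genes at which the labelled days differed at an adjusted p of 0.05 (x axis: log2 fold change of db/db + estrogen minus db/db, bars are standard errors, n = 2 arrays in each group). All 18 lie below 0 on labelled day 7, and on labelled day 14 they lie between −1.38 for Cstdc4 and 3.25 for Defb3. Sprr2f, Sprr2i, Lce3a, Defb3 and Gzmn were not well above background with estrogen on labelled day 7, where their falls have only a bound.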

How the data were processed

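Total RNA of wound homogenates was labelled with Cy3 and hybridized to Agilent mouse arrays, 1 sample to an array. The authors quantified spots with Agilent Feature Extraction 11.0.1.1 (submitters' notes), and the deposited intensity used here is the processed signal, with local background subtracted and spatial trends removed. The deposited matrix held 34643 probes as a linear ratio of each signal to the 75th percentile of its array: at least 99.73% of its values lay within 0.2% of that ratio, with column medians from 0.1395 to 0.1823.

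Here, log2 of the processed signal minus the log2 75th percentile of its array was taken over 39429 probes that are not controls, outlier spots were dropped and spots of a probe were averaged. A probe entered the tests where 1 of the 2 groups, or both, had it well above background on both of its arrays. A linear model of 8 groups (16 arrays, 8 residual degrees of freedom) was fitted with limma 3.58.1 in R 4.3.3, with Benjamini-Hochberg adjustment. Calls needed an adjusted p below 0.05 and over 2-fold, where the study used the unadjusted p. An exact permutation test of 2 against 2 arrays cannot go below p = 0.333. With 2 arrays a group the number of arrays limits the precision. The fit was tested on simulated data.

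Gene symbols came from the accessions in the array files through RefSeq (GRCm38.p6), and promoter sequences from the same source. A gene was read by 1 probe; of 200 listed genes with several tested probes, 0 were called in both directions. The members and the 51 gene lists were chosen with earlier results of these data known. Genes named were the 12 largest calls of each direction, the 5 largest bounds, up to 6 calls of each list, and leading members whatever their values. Alternatives covered background correction, normalization, filter, floor, the matrix, the arrays fitted, slide, replicate number, threshold and each array left out. On the arrays labelled day 7 the replicate number equals the slide, and on those labelled day 14 it does not; deviations from group means correlated at −0.131 between same-numbered db/db and db/db + estrogen arrays, 0.327 between db/db and vehicle arrays and −0.15 between estrogen and vehicle arrays, so the numbers were not taken to pair samples.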

Additional observations from a re-analysis of the deposited data

Results flagged for a closer look

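For 18 of the genes named, the estrogen difference was unequal between the labelled days by the interaction test (limma, adjusted p from 0.023 to 0.049, n = 2 arrays in each group). Each value below is the estrogen difference on labelled day 7 minus that on labelled day 14, in log2 units, and all 18 are negative.

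Wound epidermis genes made up the largest share. The value was −7.97 ± 0.94 for Sprr2e, −10.04 ± 1.33 for Sprr2f, −8.51 ± 1.19 for Sprr2g and −10.77 ± 1.17 for Sprr2i, which are near-identical genes. It was −9.54 ± 1.36 for Lce3a, −5.77 ± 0.75 for Krt6b, −3.55 ± 0.53 for Krt16 and −9.67 ± 1.07 for Defb3. On labelled day 14 alone the estrogen differences of these 8 genes lay between 0.14 for Lce3a and 3.25 for Defb3.

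Myeloid and stefin A genes followed. The value was −5.82 ± 0.63 for S100a8, −4.89 ± 0.72 for S100a9, −6.98 ± 1.01 for Csta3, −6.20 ± 0.92 for Cstdc4 and −2.55 ± 0.37 for Stfa1. It was −5.65 ± 0.87 for Gpr84 and −6.0 ± 0.93 for Marco. For Marco the labelled days had opposite signs, −3.17 on labelled day 7 and 2.82 on labelled day 14, and for Csta3 they were −5.37 and 1.61.

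The last 3 were the granzyme genes Gzme (−4.89 ± 0.74) and Gzmn (−3.68 ± 0.40) and the cytokine gene Il10 (−2.12 ± 0.27, with −1.24 on labelled day 7 and 0.89 on labelled day 14). With slide as a fixed block 0 probes passed this test by limma (2461 at the unadjusted threshold), and the part of slide in these differences was not tested.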

How the results depend on the processing

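The 1598 probes called between db/db + estrogen and db/db became 916 with only the arrays compared in the fit, 698 with the replicate block (57.31% higher, against 46.62%), 728 with the replicate numbers crossed between the groups, an alternative chosen after seeing the data, and 3019 at the unadjusted p. Leaving out 1 array gave 562 to 1111. Normexp (1158), quantile normalization (1652, 42.8% higher), no filter (1308), all 4 arrays well above background (1280), a floor (1654), the matrix (1599) and slide as a block (1625) moved the count by less than 1.5 times.

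Against db/db + vehicle, 990 became 637 with no filter, 339 with the replicate block, 111 to 628 with 1 array left out and 2693 at the unadjusted p. The count of 44 probes that differed between labelled days became 12 with normexp, 9 with no filter, 16 with all 4 arrays well above background, 5 with the replicate block, 3 to 62 with 1 array left out, and 0 by limma with only the arrays compared (2061 at the unadjusted p) or slide as a block (2461); 1917 passed at the unadjusted p. The causes were not tested.

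Of 176 called genes that the naming rule covers, 82 kept the call with each of the 4 arrays left out, 59 under every alternative, and 0 changed sign. Calls lost numbered 80 with the replicate block, 67 with only the arrays compared, 28 with normexp, 15 with no filter, 7 with slide as a block, 5 with a floor, 4 with quantile normalization, 1 with all 4 arrays well above background and 0 with the matrix. Normexp moved the median difference of all probes from 0.04 to 0.10. Genes not well above background in a group have only a bound.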
